A study of Homo sapiens with 8 samples.

Results

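The genes described are those of the histones, the proteins around which DNA is wound. They were chosen by symbol in the probe table of the array: linker H1 genes, core H2A, H2B, H3 and H4 genes of the histone clusters, and the variants H2AZ, H2AX, H2AJ, H3-3 and MACROH2A. The rule found 71 genes, with 1 probe set each, among 21448 probe sets tested. Of these genes 61 are replication-dependent (6 of H1, 14 of H2A, 17 of H2B, 9 of H3 and 15 of H4), 49 of them on chromosome 6, 11 on chromosome 1 and 1 on chromosome 12. The other 10 are replacement variants: H1-7, H1-8, H1-10, H2AZ1, H2AZ2, H2AX, H2AJ, H3-3B, MACROH2A1 and MACROH2A2.

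H1299, a human lung cancer cell line (non-small cell lung carcinoma), was grown with GA or with 5azaC for 120 h, and RNA was measured on 8 Clariom S arrays. GA is gallic acid, a phenolic acid of tea, and 5azaC is 5-azacytidine, a cytidine analog that is built into nucleic acids and traps DNA methyltransferases. The groups were GA, Ctrl for GA, 5azaC and Ctrl for 5azaC, each with 2 arrays marked as biological replicates, and the controls were untreated cells taken at the same passage. GEO's labels give the dose of either compound as 10 mM and the text of the study gives it in micromolar, so no dose is read from the values. All cells came from 1 cell line.

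Core histones form the nucleosome, in which DNA wraps around an octamer of H2A, H2B, H3 and H4, and a linker histone H1 binds where the DNA enters and leaves it. Replication-dependent histone genes lie in clusters, are read mainly in S phase, and make mRNAs that end in a stem-loop bound by SLBP in place of a poly(A) tail. Replacement variants lie alone, are mostly read throughout the cell cycle into polyadenylated mRNA, and exchange with the core histones outside replication. Many cluster genes encode the same or nearly the same protein, so near-identical copies such as H2AC18 and H2AC19, H2AC11 and H2AC13 or H4C14 and H4C15 may share signal. The extent of this sharing, and how far labelling reached mRNAs without a poly(A) tail, was not tested.

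Among the families the linker genes had the lowest median after 5azaC. Their promoters held a box not found in the matched promoters of the core families. Whether this box bears on the fold changes was not tested. The letters AAACACA, an H1 box, stood within 250 bases before the start, on either strand, in 6 of 6 replication-dependent H1 promoters and in none of the matched cluster promoters of H2A, H2B, H3 and H4, against 4.82% of 35116 promoters in RefSeq (GRCh38.p14). Of the 71 genes 67 had a promoter in that table. The last 150 bases before the start are printed for the 4 H1 genes measured above background, in the gene's own direction, with capitals for matches on either strand to this H1 box, to the CCAAT box and to the TATA box (searched as the letters TATAAA). They lie at chr6:26056471-26056620 (minus strand), chr6:26234988-26235137 (minus strand), chr6:26156179-26156328 (plus strand) and chr6:27867589-27867738 (minus strand).
H1-2: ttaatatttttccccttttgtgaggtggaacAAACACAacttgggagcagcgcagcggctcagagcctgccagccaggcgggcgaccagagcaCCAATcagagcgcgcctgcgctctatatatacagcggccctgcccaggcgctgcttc
H1-3: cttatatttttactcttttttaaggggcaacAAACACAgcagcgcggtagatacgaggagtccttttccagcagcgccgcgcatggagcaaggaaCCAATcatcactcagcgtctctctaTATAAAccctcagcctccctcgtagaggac
H1-4: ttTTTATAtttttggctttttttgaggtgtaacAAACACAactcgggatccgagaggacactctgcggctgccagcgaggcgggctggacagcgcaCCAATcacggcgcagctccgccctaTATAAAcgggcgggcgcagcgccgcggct
H1-5: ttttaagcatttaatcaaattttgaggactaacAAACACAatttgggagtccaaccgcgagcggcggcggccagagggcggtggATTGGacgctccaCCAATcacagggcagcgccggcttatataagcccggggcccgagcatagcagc

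Counts of other boxes differed between the core families. CCAAT, also searched on both strands, stood in all promoters of H1, H2A, H2B and H3 cluster genes that were matched, but in 3 of 13 of H4, against 32% of all promoters. The octamer ATTTGCAT stood in 8 of 13 H2A and 14 of 17 H2B promoters and in none of H1, H3 or H4, against 1.63% of all promoters. The TATA box stood in 38 of 57 promoters of cluster genes (66.7%), in 4 of 10 of the variants and in 10.7% of all. These counts took the letters on either strand at any distance searched, so they are not counts of boxes near the start. For H2AC8, H2BC4, H2BC14 and H2BC17 the only match was on the opposite strand, 206, 220, 219 and 214 bases before the start. That of H2AC8 is the match 32 bases before the start of H2BC8. For H2BC6 and H4C16 the only match lay 189 bases or more before the start. H2A and H2B genes often stand head to head and share the stretch between their starts, and 8 such pairs were found within 500 bases. The stretch between H2BC8 (minus strand) and H2AC8 (plus strand), chr6:26216689-26216920, is shown in the direction of H2AC8 because both genes are among those with the lowest fold changes after 5azaC, with capitals for the CCAAT box, the TATA box and the octamer on either strand. A match is a description of letters and not a measured binding site.
H2BC8 to H2AC8: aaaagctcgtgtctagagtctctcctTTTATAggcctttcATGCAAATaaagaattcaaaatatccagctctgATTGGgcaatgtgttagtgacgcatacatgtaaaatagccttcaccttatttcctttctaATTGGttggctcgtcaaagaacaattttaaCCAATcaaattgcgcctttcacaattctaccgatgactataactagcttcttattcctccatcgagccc

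Values are log2 signals, so a difference of 1 is a doubling. In the GA experiment the 4 arrays had medians of 5.60 to 5.63 over all probe sets, and in the 5azaC experiment of 5.85 to 5.87. Background on an array was the 95th percentile over its 612 probe sets of negative controls, 6.31 to 7.23. Of all probe sets 39.9% to 46.1% were above it on an array, and 46 to 52 of the histone genes. On both arrays of at least 1 group, 44 of the 61 replication-dependent genes (4 of H1, 12 of H2A, 14 of H2B, 5 of H3 and 9 of H4) and 8 of the 10 variants were above it. The markers KRT8, KRT18 and VIM were above background on all 8 arrays, KRT19 and EPCAM on 0, and every listed marker of blood, endothelium, fibroblasts, liver and differentiated lung on 0.

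The first question was whether histone transcripts differed after GA. None of the 71 genes passed the test by limma with pairs as a block (Benjamini-Hochberg adjusted p under 0.05), while 69 of all probe sets did (0.322%, with 0.0793% higher and 0.242% lower). At an unadjusted p under 0.05 there were 3 histone genes higher (4.23%) and 5 lower (7.04%), against 8.91% and 6.94% of all probe sets. Without the pair block 0 histone genes were higher and 2 lower (H1-2 and H1-10), against 1.05% and 0.928% of all probe sets. The replication-dependent genes had a median log2 fold change of -0.03 (27 positive, 34 negative) and the variants of -0.05, against 0.02 for all probe sets. The arrays of GA and its controls did not overlap for 11 of the 61 replication-dependent genes in the higher direction and for 14 in the lower, against 25.3% and 21.4% of all probe sets. In bulk RNA, fewer cells of a kind and less RNA per cell cannot be told apart.

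The pairs of the GA experiment did not move alike. The median difference of the replication-dependent genes was 0.07 in pair 1 and -0.22 in pair 2. Of the 44 genes above background, 19 were lower in pair 1 and 34 in pair 2. All 9 cluster genes of H3 were higher in pair 1 (median 0.65), whereas 7 of them were lower in pair 2 (median -0.28). On the control arrays, replicate 2 of Ctrl for GA lay above replicate 1 for 46 of 61 replication-dependent genes (median difference 0.24), against a median difference of -0.01 over all probe sets.

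After 5azaC the replication-dependent genes lay lower as a class. Their median log2 fold change was -0.50, with 52 of 61 negative, and the pairs gave -0.52 and -0.43, against 0.05 for all probe sets. Among the 44 above background, 42 were negative with a median of -0.56. H2BC17, H3C10 and H4C4 were above background only through Ctrl for 5azaC, with 0.34, -1.08 and -0.72. For these genes the filter itself favoured a lower value after 5azaC. The replacement variants had a median of -0.12, with 6 of 10 negative. By limma 3 of the 71 genes were called lower, H1-2, H1-3 and H1-6, and 0 higher. H1-6 lay below background on every array, so 2 measured genes fell, against 0.988% of all probe sets that fell and 0.518% that rose (1.51% in all). Without the pair block 7 were called lower, H1-6 among them, and 0 higher, against 2.29% and 1.86%. The arrays of 5azaC and its controls did not overlap, in the lower direction, for 45 of the 61 replication-dependent genes (73.8%), against 22.2% of all probe sets, and in the higher direction for 4, against 28.1%. For the variants they did not overlap for 4 of 10 in the lower direction and 3 in the higher. No test was made of the class as a whole or of its difference from the variants.

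By family the medians after 5azaC were -1.47 for H1, -0.43 for H2A, -0.50 for H2B, -0.75 for H3 and -0.30 for H4. All 14 H2A genes were negative, and so were 5 of 6 of H1, 15 of 17 of H2B, 6 of 9 of H3 and 12 of 15 of H4. The cluster genes on chromosome 6 had a median of -0.50 and those on chromosome 1 of -0.42. After GA the family medians were -0.50 for H1, -0.07 for H2A, -0.03 for H2B, 0.15 for H3 and 0.10 for H4. Over genes above background they were -0.73, -0.07, -0.04, 0.15 and -0.16, so that the sign for H4 turned, while after 5azaC they were -1.50, -0.55, -0.51, -0.79 and -0.40.

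**Figure D1:**
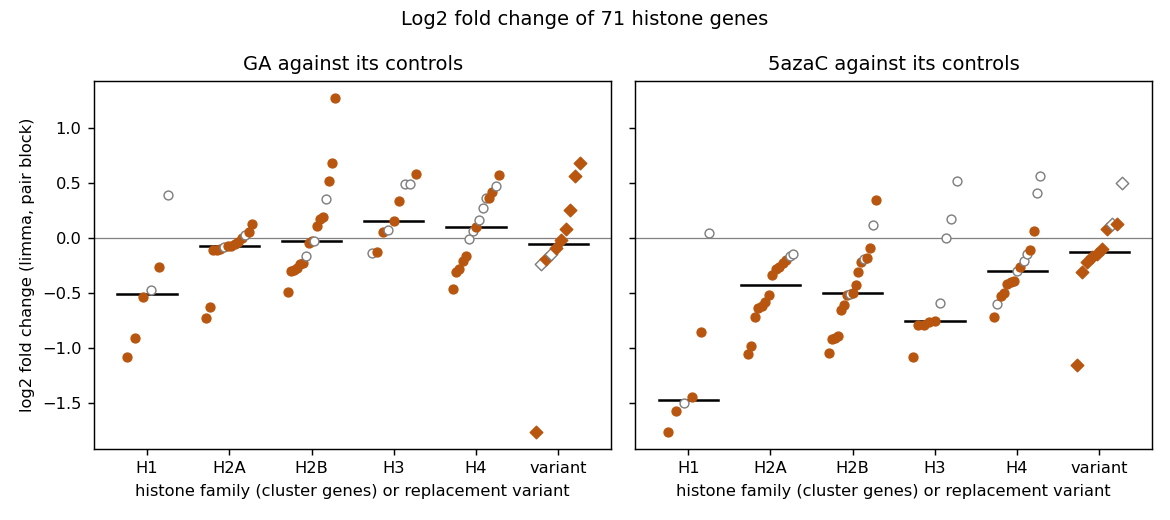
Log2 fold change (y axis) of each of the 71 histone genes by family (x axis), after GA on the left and after 5azaC on the right; circles are cluster genes, diamonds are replacement variants, open symbols lay below background and bars are medians. After 5azaC the median of every cluster family lies below 0, from -1.47 for H1 to -0.30 for H4, while after GA the medians lie between -0.50 and 0.15.

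These differences were taken against controls that themselves stood high. As deviations from each gene's mean over the 8 arrays, the replication-dependent genes had medians of 0.54 and 0.42 on the arrays of Ctrl for 5azaC and of 0 and -0.08 on those of 5azaC. On the arrays of Ctrl for GA they had -0.39 and -0.07 and on those of GA -0.21 and -0.30. The class on the 5azaC arrays was thus below Ctrl for 5azaC and close to replicate 2 of Ctrl for GA. Over all probe sets the median deviation was 0.12 and 0.10 on the 5azaC arrays and -0.11 on replicate 2 of Ctrl for GA. When all 4 untreated arrays served as controls, the median log2 fold change of the class was -0.17 after 5azaC and -0.29 after GA. This comparison was added with the values in view. The arrays were not rescaled for it, and the untreated groups differed by a median of 0.18 over all probe sets. These class medians therefore hold part of that offset. The part of the controls in the result was not tested further.

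**Figure D2:**
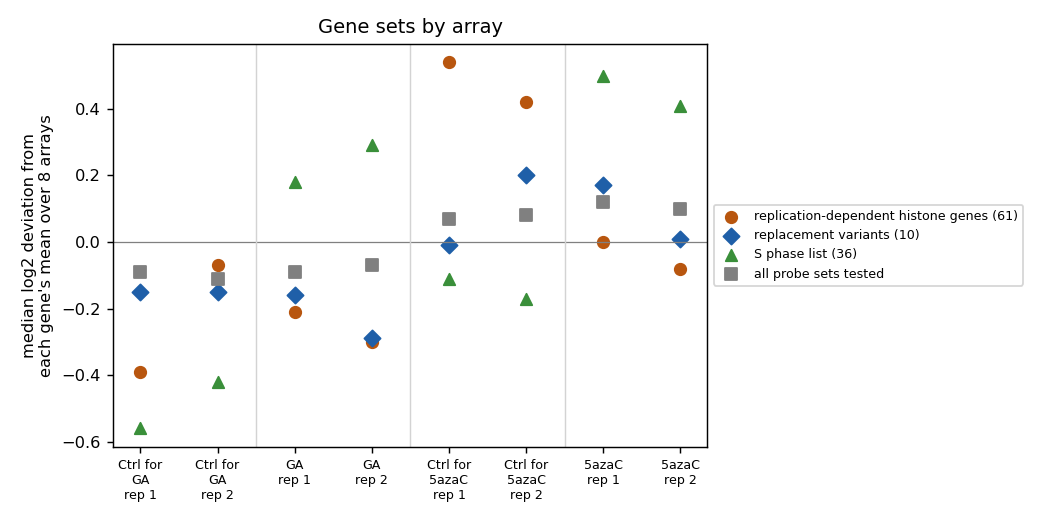
Median deviation from each gene's mean over the 8 arrays (y axis, log2) on each array (x axis) for the 61 replication-dependent histone genes, the 10 replacement variants, the 36 genes of the S phase list and all probe sets. The histone cluster genes are highest on the arrays of Ctrl for 5azaC (0.54 and 0.42), while the S phase list is lowest on those of Ctrl for GA (-0.56 and -0.42) and highest on those of 5azaC (0.50 and 0.41).

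Linker H1 genes showed the lowest values. H1-3, a somatic linker histone, had log2 signals of 7.95 and 7.57 on the 5azaC arrays and of 9.55 and 9.50 on their controls. It fell by 1.76 on the log2 scale (standard error 0.21, limma adjusted p = 0.0203), a fold of 3.39 downward. After GA its signals were 7.62 and 7.77 against 8.47 and 8.75, a log2 fold change of -0.91 (standard error 0.21, limma adjusted p = 0.11). The treated arrays lay below the untreated ones in both experiments without overlap.

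H1-2, another somatic linker histone, had signals of 9.72 and 9.83 after 5azaC against 11.25 and 11.17. It fell by 1.44 (standard error 0.25, limma adjusted p = 0.0444). After GA the signals were 9.79 and 9.29 against 10.48 and 10.77, a log2 fold change of -1.08 (standard error 0.25, limma adjusted p = 0.106), which passed without the pair block (limma adjusted p = 0.0424). Its levels on the 4 treated arrays lay within 9.29 to 9.83 and below all 4 untreated arrays. The calls after 5azaC were sensitive to the arrays used. Without the pair of GA replicate 1 or of GA replicate 2, which gives the same fit of 5azaC, the limma adjusted p was 0.0769 for H1-3 and 0.0905 for H1-2. Without 5azaC replicate 1 or 5azaC replicate 2 only 1 5azaC pair is left, so such a fit holds no spread between 5azaC pairs. The log2 fold change was then -1.93 and -1.59 for H1-3 and -1.34 and -1.53 for H1-2.

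H1-4, a somatic linker histone with a bright probe set, had signals of 15.04 and 14.72 after 5azaC against 16.59 and 16.30 on the controls. Its log2 fold change of -1.57 (standard error 0.29) narrowly missed the threshold (limma adjusted p = 0.0505) and passed without the pair block (limma adjusted p = 0.0226). After GA it had 15.02 and 14.90 against 14.99 and 16.01, so that the groups overlapped. H1-5 had 14.71 and 15.00 after 5azaC against 15.98 and 15.42, a log2 fold change of -0.85 (limma adjusted p = 0.152), and 14.59 and 14.23 after GA against 14.53 and 14.81, with -0.26. H1-6, a linker histone of the testis, lay below background in every group, so no change is read from its call after 5azaC (log2 fold change -1.50, limma adjusted p = 0.049). H1-1 also lay below background on every array.

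**Figure D3:**
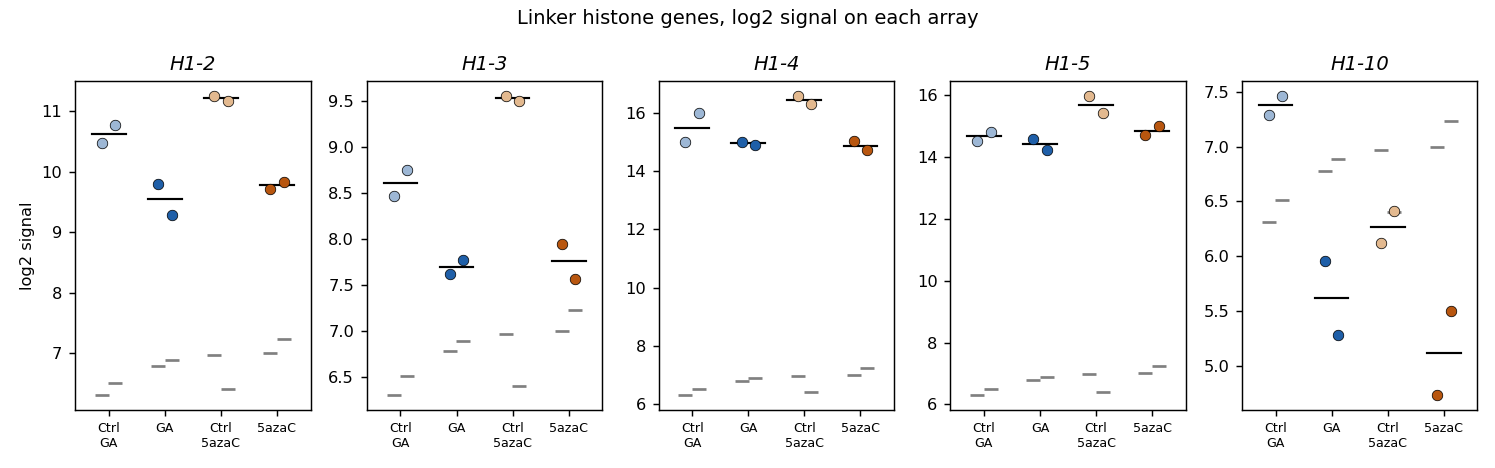
Log2 signal (y axis) on each array, by group (x axis), of the 5 linker genes above background in a group; points are arrays, black bars are group means and grey dashes mark the background of each array. H1-2 and H1-3 lie lower on every treated array than on every untreated one, and H1-10 lies below background on the arrays of GA (5.96 and 5.28) and above it on their controls (7.29 and 7.46).

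H1-10, a linker variant outside the clusters, had the lowest log2 fold change of the 71 genes after GA. Its signals were 5.96 and 5.28 against 7.29 and 7.46 on the controls, with -1.76 (standard error 0.27, limma adjusted p = 0.0563). Since it lay below background after GA, the difference is given as at least 1.45-fold lower, which is the fold to the background level and carries no error of its own. It passed without the pair block (limma adjusted p = 0.0212). After 5azaC it had 4.74 and 5.50 against 6.12 and 6.41, and only 1 of these 4 arrays was above background, so no fold is read. H1-7 and H1-8, linker histones of the testis and the oocyte, lay below background on all arrays.

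No H2A gene passed the test in either experiment with the pair block. H2AC8 had signals of 13.93 and 13.87 after 5azaC against 15.06 and 14.83, a log2 fold change of -1.05 (standard error 0.25, limma adjusted p = 0.0804). H2AC6 had 7.88 and 8.38 against 9.23 and 8.99, with -0.98 (limma adjusted p = 0.0895). Treated and untreated arrays did not overlap for either gene. Both passed without the block, among the 7 histone genes called lower there (H1-2, H1-3, H1-4, H1-6, H2AC6, H2AC8 and H2BC21). These 2 genes also had the lowest values of the family after GA, -0.63 for H2AC8 and -0.73 for H2AC6 (limma adjusted p = 0.274 and 0.213).

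At the other end of the family H2AC18 differed least after 5azaC, with 12.10 and 11.95 against 12.29 and 12.17, a log2 fold change of -0.20 (limma adjusted p = 0.635). After GA the highest value was that of H2AC12, with 8.26 and 7.98 against 7.79 and 8.21, which overlap. H2AC14 had 16.65 and 16.36 after 5azaC against 17.09 and 16.96, and 16.35 and 16.53 after GA against 16.31 and 16.79. Its groups were apart after 5azaC and overlapped after GA.

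Among H2B genes the lowest value after 5azaC was that of H2BC21, on chromosome 1. Its signals were 7.71 and 7.80 against 8.88 and 8.70, a log2 fold change of -1.04 (standard error 0.23, limma adjusted p = 0.072), and the groups were apart. After GA it had 8.15 and 7.57 against 8.17 and 8.13, with -0.29. H2BC8 had 10.92 and 10.72 after 5azaC against 12.20 and 11.29, with -0.92 (limma adjusted p = 0.108), and it was the lowest of the family after GA at -0.49. H2BC12 had 16.45 and 16.08 against 16.96 and 16.57 after 5azaC, which were apart.

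H2BC14 stood out in the other direction after GA, with the highest log2 fold change of all 71 genes. Its signals were 10.52 and 9.62 on the GA arrays and 8.45 and 9.15 on their controls, a log2 fold change of 1.27 (standard error 0.35, limma adjusted p = 0.157). The groups did not overlap, but the pairs gave 2.07 and 0.47. After 5azaC it had 10.35 and 10.06 against 10.35 and 10.24, with -0.09. The difference between the treatments was -1.36 with a 95% interval from -2.52 to -0.19, and did not pass the test over all probe sets (limma adjusted p = 0.743). H2BC17 was the highest of the family after 5azaC at 0.34, with 7.54 and 7.13 against 7.15 and 6.85.

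Genes that share a stretch between their starts could be set side by side. Of the 8 head-to-head pairs of H2A and H2B genes, 6 had both members above background. In all 6 both members had a negative log2 fold change after 5azaC. So did 42 of the 44 replication-dependent genes above background (95.5%), so this is not particular to the pairs. H2BC8 and H2AC8 had -0.92 and -1.05, and H2BC11 and H2AC11 had -0.91 and -0.72. H2BC4 and H2AC6 differed more, with -0.22 and -0.98, and so did H2BC21 and H2AC20, with -1.04 and -0.28. After GA 2 of the 6 pairs had opposite signs, among them H2AC14 at -0.11 and H2BC14 at 1.27. None of these pairs was tested as a unit.

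Among the H3 cluster genes, which encode the H3 placed at replication, H3C10 was the lowest after 5azaC, with 6.13 and 5.72 against 7.02 and 6.99, a log2 fold change of -1.08 (limma adjusted p = 0.112). Its treated arrays lay below their background, which had a mean of 7.11 and so exceeded the mean of the controls (7.01). No fold is therefore given. H3C2 had 9.87 and 9.81 after 5azaC against 10.64 and 10.64, with -0.79 (limma adjusted p = 0.284), and 9.78 and 9.17 after GA against 8.35 and 9.45, with 0.58. H3C7 had 11.91 and 11.62 after 5azaC against 12.59 and 12.43, with -0.75, and 11.60 and 11.54 after GA against 11.26 and 12.14. Over all 9 H3 cluster genes the groups were apart after 5azaC in the lower direction for 6 (66.7%), against 22.2% of all probe sets. In the higher direction they were apart for 1 (11.1%), against 28.1%. All 5 H3 genes above background were apart in the lower direction, but H3C10 was above background only through Ctrl for 5azaC. After GA they were apart for none of the 5, against 25.3% of all probe sets in the higher direction and 21.4% in the lower.

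H4 genes, which almost all encode the same protein, differed least among the cluster families after 5azaC. H4C4 was the lowest, with 6.47 and 6.36 against 7.17 and 7.10, a log2 fold change of -0.72 (limma adjusted p = 0.111), where the treated arrays were below background and the difference is at least 1.02-fold. H4C3 had 16.14 and 16.35 against 16.66 and 16.63, with -0.40. H4C8 went against the family with 10.28 and 10.27 against 10.25 and 10.17 after 5azaC, with 0.06, and it was the lowest H4 gene above background after GA, with 10.18 and 10.22 against 10.81 and 10.51 (-0.46, limma adjusted p = 0.348). H4C14 was the highest after GA, with 10.01 and 9.69 against 8.99 and 9.57 (0.57, limma adjusted p = 0.353).

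No replacement variant passed the test with the pair block in either experiment. The 7 variants of core histones above background had log2 fold changes from -0.19 to 0.68 after GA and from -0.31 to 0.13 after 5azaC. H2AZ1, a variant of H2A at promoters and regulatory sites, had 15.17 and 14.95 after GA against 15.17 and 14.98, and 15.20 and 15.11 after 5azaC against 15.06 and 15.10. These are log2 fold changes of -0.02 and 0.08 with a standard error of 0.20 each, so that neither lay beyond its error. H2AZ2, its sister gene, had -0.09 and -0.17. H3-3B, which encodes the H3 variant placed outside replication, had 12.71 and 12.59 after GA against 12.39 and 12.41 (0.25) and 13.58 and 13.54 after 5azaC against 13.80 and 13.52 (-0.10). H2AJ, an H2A variant, had 0.08 and -0.15.

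Higher values after GA were seen for H2AX and MACROH2A1 without passing the test. H2AX, the H2A variant that is phosphorylated beside DNA breaks, had 12.64 and 12.42 after GA against 11.68 and 12.27, a log2 fold change of 0.56 (standard error 0.25, limma adjusted p = 0.345), and 11.52 and 11.40 after 5azaC against 11.85 and 11.51 (-0.22). MACROH2A1, an H2A variant with a large macro domain, had 12.25 and 12.00 after GA against 11.19 and 11.69 (0.68, standard error 0.27, limma adjusted p = 0.28) and 11.91 and 11.66 after 5azaC against 11.45 and 11.86 (0.13). The groups were apart after GA for both genes and overlapped after 5azaC. MACROH2A2, its paralog, had -0.19 and -0.31.

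**Figure D4:**
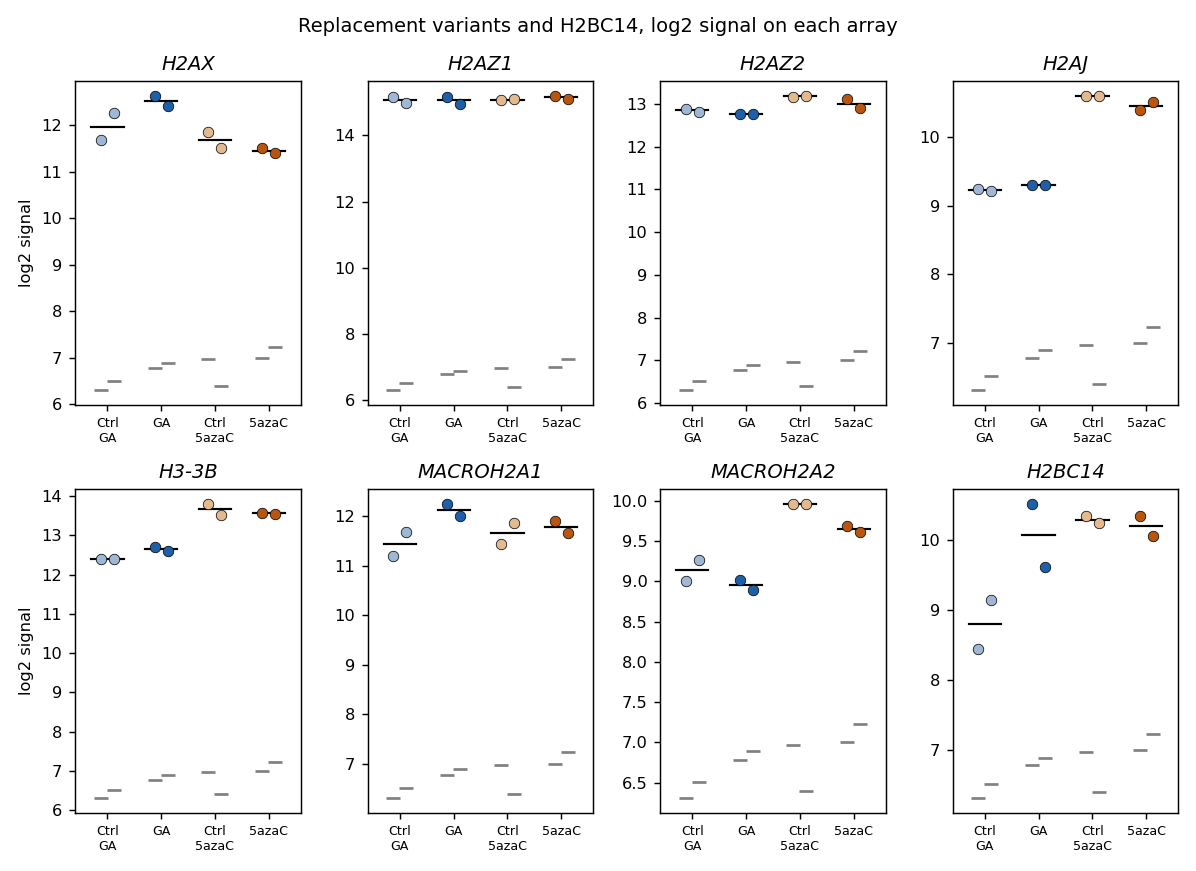
Log2 signal (y axis) on each array, by group (x axis), of 7 replacement variants and of the cluster gene H2BC14; points are arrays, black bars are group means and grey dashes mark the background of each array. H2AZ1 lies between 14.95 and 15.20 on all arrays, H2AJ and H3-3B lie higher on all arrays of the 5azaC experiment than on those of the GA experiment, and H2BC14 is lowest on Ctrl for GA (8.45 and 9.15).

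Whether histone genes responded differently to the compounds was tested directly as the difference of the effects in the same fit. None of the 71 genes passed, and none of all probe sets did (0%). At an unadjusted p under 0.05, 786 of all probe sets were higher (3.66%) and 644 lower (3%). Of the replication-dependent genes 55 of 61 had a more negative log2 fold change after 5azaC than after GA, with a median difference of -0.42. At an unadjusted p under 0.05, 13 of them were lower (21.3%) and 0 higher. The variants had a median of -0.10. For H1-3 the difference was -0.85 with a 95% interval from -1.55 to -0.15, for H1-4 -1.03 (-1.98 to -0.07) and for H3C13 -1.09 (-1.89 to -0.29). For H1-2 the interval from -1.17 to 0.47 held 0, and that of H2AZ1 ran from -0.58 to 0.76.

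Across the 71 genes the log2 fold changes after GA and 5azaC had a Pearson correlation of 0.564 (Spearman 0.485), close to that over all probe sets (0.537 and 0.429). These are descriptions across genes of the same arrays, which are not independent replicates. H1-2 and H1-3 were at the low end in both experiments.

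**Figure D5:**
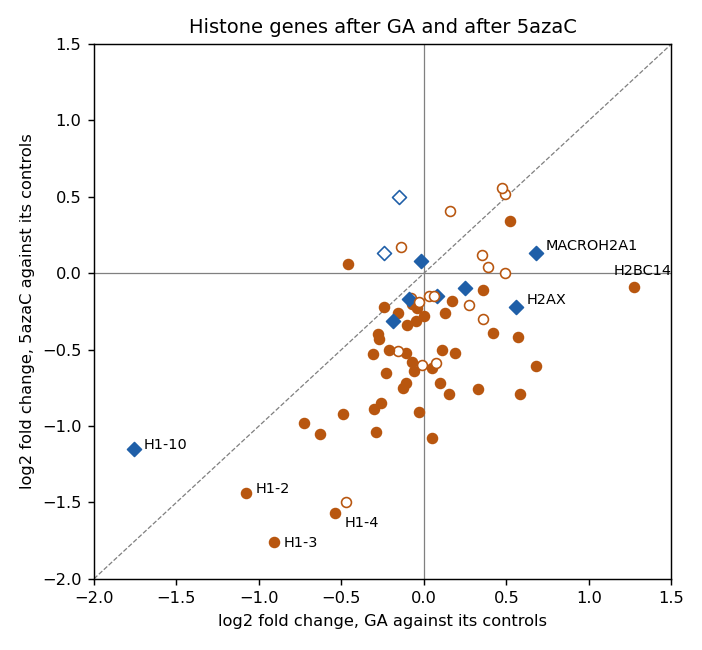
Log2 fold change after GA (x axis) against that after 5azaC (y axis) for the 71 histone genes; circles are cluster genes, diamonds are replacement variants, open symbols lay below background and the dashed line marks equal values. Of the 61 cluster genes 55 lie below the line, and H2BC14 lies farthest to the right (1.27).

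Histone signals also differed between the untreated arrays of the experiments, which are the controls of the comparisons above and are not independent of them. In Ctrl for 5azaC against Ctrl for GA, limma without a block called 4134 of all probe sets (19.3%, with 15.2% higher and 4.07% lower), and the median over all probe sets was 0.18. Of the histone genes 32 were higher and 1 lower, 29 of the higher ones replication-dependent with a class median of 0.77. Of the 44 replication-dependent genes above background 21 were higher, with a median of 0.81. That filter admitted H2BC17, H3C10 and H4C4 only through Ctrl for 5azaC. The arrays did not overlap, in the higher direction, for 49 of the 61 genes, against 43.4% of all probe sets, and in the lower direction for 5, against 20.8%. Quantile normalization and median centring moved the median over all probe sets to 0 and -0.06 and the share of calls that were higher from 78.9% to 46.9% and 43.9%. The class median was then 0.46 and 0.53, with 9 and 14 genes higher and 2 and 1 lower. Of all probe sets 4.86% were then higher and 5.49% lower, and 6.80% and 8.70%. Among the genes above background 5 and 10 were higher and 2 and 1 lower. The 5 that were higher under each scaling were H2AC15, H2BC26, H3C2, H4C14 and H4C15. Leaving out any 1 of the untreated arrays leaves 1 array in a group. Fewer histone genes were then called higher, and fewer of all probe sets were called. Whatever else differed between the experiments cannot be told apart from this difference.

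Several cluster genes differed by over a doubling between the untreated groups. H4C14 had 10.83 and 10.97 on Ctrl for 5azaC against 8.99 and 9.57 on Ctrl for GA, a log2 difference of 1.62 (standard error 0.24, limma adjusted p = 0.00374), and its neighbour H4C15 had 1.54. H2BC26 had 8.18 and 7.80 against 5.64 and 6.64, with 1.85 (limma adjusted p = 0.00631), where 1 of the arrays of Ctrl for GA lay below background. H3C2 had 1.74 (limma adjusted p = 0.0084). H2BC14, highest of the H2B genes after GA, had 1.49 (limma adjusted p = 0.0122), so that its GA arrays lay between the untreated groups or above them. H2BC17 and H3C10 lay below background on Ctrl for GA and were at least 1.5-fold and 1.51-fold higher on Ctrl for 5azaC. H1-2 did not pass (0.59, limma adjusted p = 0.0951), whereas H1-3 did (0.92, limma adjusted p = 0.0187), though not after quantile normalization or median centring (limma adjusted p = 0.144 and 0.0603).

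The variants split in this comparison. H2AJ had 10.61 and 10.61 against 9.24 and 9.22, with 1.38 (limma adjusted p = 0.00303), and H3-3B had 1.26 (limma adjusted p = 0.00449). Both were higher under every scaling. MACROH2A2 had 0.82 (limma adjusted p = 0.0202) and was not called after quantile normalization or median centring. H1-10 was lower, at -1.11 (limma adjusted p = 0.0291), with 1 of the arrays of Ctrl for 5azaC above background. H2AZ1 had a difference of 0 (standard error 0.20). The median over the 10 variants was 0.17 as deposited and turned to -0.11 and -0.07 after quantile normalization and median centring.

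Genes that express, process or carry histones were counted over whole lists. Of 24 genes of histone gene expression and 3′ end formation 23 were measured, and none was called after GA or 5azaC (medians 0.07 and 0.05). Of all probe sets 0.322% and 1.51% were called, so lists of this size would hold few calls at that share. SLBP, which binds the stem-loop of histone mRNA, had 9.53 and 8.53 after GA against 9.16 and 9.42 (log2 fold change -0.26, limma adjusted p = 0.766) and 9.64 and 10.10 after 5azaC against 10.17 and 10.06 (-0.24, limma adjusted p = 0.726). NPAT, the activator of histone gene transcription that cyclin E and its kinase phosphorylate, had 9.49 and 9.31 after GA against 8.29 and 8.58 (0.97, limma adjusted p = 0.107) and 9.73 and 9.81 after 5azaC against 9.08 and 8.94 (0.76, limma adjusted p = 0.122). Its groups did not overlap in either experiment. CASP8AP2, a protein of the histone locus body, had -0.38 and 0.07. Of 35 histone chaperones and deposition factors 32 were measured, and none was called (medians 0.16 and 0.25), against the same shares. Between the untreated groups the expression list had a median of 0.67, with 6 of 23 genes higher and 0 lower on Ctrl for 5azaC. The chaperone list had a median of 0.29, with 7 of 32 higher and 2 lower. Over all probe sets the median was 0.18, with 15.2% higher and 4.07% lower.

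S phase genes had positive medians after both treatments. Of 37 listed, 36 were measured, with a median log2 fold change of 0.63 after GA (35 positive) and of 0.57 after 5azaC (32 positive), against 0.02 and 0.05 for all probe sets. After GA 2 rose (0.0793% of all probe sets did), RRM2, a subunit of ribonucleotide reductase, by 1.63 (limma adjusted p = 0.0344) and RPA2, a subunit of the single-strand DNA binding complex, by 1.43 (limma adjusted p = 0.0488). After 5azaC 2 rose (0.518% of all), CCNE2, a cyclin of S phase entry, by 1.54 (limma adjusted p = 0.0286) and RFC3, a subunit of the clamp loader, by 1.12 (limma adjusted p = 0.049). Signals of CCNE2 were 10.30 and 10.50 after 5azaC against 8.81 and 8.91. These genes were also higher under the other compound without being called. CCNE2 and RFC3 had 1.35 and 1.03 after GA, and RRM2 and RPA2 had 0.71 and 0.88 after 5azaC. The difference of the effects was called for none of the listed genes, as for none of all probe sets. Between the untreated groups the list had a median of 0.38 against 0.18 for all probe sets, and 8 of 36 genes were higher on Ctrl for 5azaC, against 15.2% of all. The study reports lower BrdU incorporation, a measure of DNA synthesis, in H1299 grown with GA, at an earlier time than the arrays. The share of cells in S phase was not measured in the cultures of the arrays, and its part in the histone values was not tested.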

How the data were processed

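RNA of 8 cultures of H1299 cells was measured on Clariom S arrays, 2 per group. Scans were processed by the authors in Affymetrix Expression Console 1.4 (RMA with Signal Space Transformation), and the deposited table holds a log2 signal for each probe set on each array. No source used here gives the genome build of the probes, so the only coordinates printed are those of RefSeq promoters (GRCh38.p14).

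From 24351 entries 2903 controls were left out. Of the 21448 probe sets tested, without a filter or further scaling, 17709 have 1 symbol in the platform's probe table and 3739 are unnamed here. Samples were grouped by their titles. The members, the gene lists and the tests were chosen with earlier results of these data known.

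The test was limma 3.58.1 (lmFit and eBayes, in R 4.3.3), with all 8 arrays in 1 fit with a term for each of the 4 pairs and the effects of GA and 5azaC, as the methods name a paired test (2 residual degrees of freedom, prior 5.56). The difference of the effects was a contrast of this fit, and the untreated groups were compared by a 4-group fit without pairs (4 residual degrees of freedom). P-values were two-sided and adjusted by Benjamini-Hochberg over all probe sets, with a threshold of 0.05. Where a gene lay below background on both arrays of 1 group, a fold to the background level is given as a bound, and where both groups did, none is read. Named are called genes, the highest mean and the extreme fold changes of each family among genes above background, and the variants above background; other genes were named after their values were seen.

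Alternatives were no pair block, the 4 arrays of a comparison alone, the methods' paired t-test, quantile normalization, median centring, no dim probe sets (the lowest 33%), eBayes with trend and robust settings, leaving out each pair or untreated array, and, chosen after the data were seen, all untreated arrays as controls. In simulated data of 21448 probe sets, 100 were changed 4-fold and 100 were changed 2-fold. The fit for GA recovered 83% of the 4-fold and 1% of the 2-fold changes, and that for 5azaC 81% and 2%. The fit of untreated groups recovered 88% and 13%. Unchanged probe sets called were 3, 2 and 5. Between the real untreated groups 4134 probe sets were called, which makes the adjusted threshold less strict, so 13% does not describe that comparison. The number of arrays limits the precision. Promoters were searched over 250 bases before the start with Python 3.11.15, and figures drawn with matplotlib 3.10.9.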

Additional observations from a re-analysis of the deposited data

Results flagged for a closer look

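The median of the 15 H4 cluster genes had opposite signs in the experiments. It was 0.10 and 0.05 in the GA pairs and -0.25 and -0.29 in the 5azaC pairs, a difference of -0.35 between the means of the pair medians, which was not tested. This rests on genes below background. Over the 9 H4 genes above background the medians were -0.01 and -0.28 in the GA pairs and -0.40 and -0.39 in the 5azaC pairs, all below 0. For the difference of the effects, 3 of the 15 genes were lower and 0 higher at an unadjusted p under 0.05. Of all probe sets 3% were lower and 3.66% higher. After adjustment 0 passed limma's test, and so did 0% of all probe sets.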

How the results depend on the processing

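No alternative turned the fold change of H1-10, H1-2 or H2BC14 after GA or of H1-2, H1-3, H1-4, H1-5, H1-6, H2BC21, H2AC8 or H2AC6 after 5azaC, whereas the median of the variants changed sign. After 5azaC H1-3 lost its call in 3 of 11 alternatives, the 4 arrays alone and the fits without a GA pair. These are the same fit of 5azaC (limma adjusted p = 0.0769). H1-2 lost its call in 6 of 11. Among them were the same 3 (limma adjusted p = 0.0905), quantile normalization (limma adjusted p = 0.0515) and the fits with 1 5azaC pair left. With trend and robust settings the limma adjusted p was 0.000624 for H1-3 and 0.00179 for H1-2. Without the pair block 425 probe sets were called after GA (2 histone genes lower) and 889 after 5azaC (7 lower). As a check of the pairing, treated and control arrays of 1 number were compared in how they deviate from their groups, with correlations of -0.023 (GA) and 0.0289 (5azaC), which show no likeness within a pair. With the 4 arrays of a comparison alone, 620 were called after GA (1 histone gene higher, 2 lower) and 22 after 5azaC (0 histone genes lower). The methods' paired t-test gave 160 for GA (0 histone genes) and 277 for 5azaC (2 histone genes lower) at an unadjusted p under 0.05 and a 2-fold change, and after Benjamini-Hochberg 6 for GA and 0 for 5azaC (0 histone genes lower). Without the dimmest probe sets the counts were 408 (1 lower) and 937 (7 lower), with variant medians of 0.03 after GA, -0.16 after 5azaC and 0.28 between untreated groups. The same medians hold for the 8 variants above background. With trend and robust settings the counts were 1210 (1 histone gene higher, 4 lower) and 1838 (19 lower).

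Quantile normalization left 1 histone gene lower after 5azaC, with a class median of -0.39. Between untreated groups it gave 2220 calls, with 11 histone genes higher and 3 lower, a class median of 0.46 and a variant median of -0.11, and median centring gave 16 higher, 2 lower and a variant median of -0.07. With all 4 untreated arrays as controls, and no rescaling between the experiments, 151 probe sets were called after GA (1 histone gene lower) and 780 after 5azaC. The medians were then -0.29 for cluster genes and -0.23 for variants after GA, and -0.17 and 0.09 after 5azaC.

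Leaving out each pair gave a cluster gene median of -0.22 to 0.07 and a variant median of -0.05 to 0.03 after GA. For 5azaC it gave 22 to 257 calls, 0 to 2 histone genes lower and a class median of -0.52 to -0.43, and for the difference of the effects 0 to 3 calls. Leaving out each untreated array gave 909 to 1861 calls between untreated groups, 7 to 24 histone genes higher, 0 to 1 lower and a variant median of 0 to 0.32. The cause of these shifts was not tested. Each gene has 1 probe set, so averaging probe sets changes nothing. With 2 arrays a group, 2-fold changes are mostly missed in simulated data in which few probe sets changed (2% recovered for 5azaC). Histone genes below background have no measured level.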
